A study of Mus musculus with 8 samples.

Results

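The unfolded protein response and the integrated stress response were followed across 37 genes in livers of mice with and without the liver X receptors. The genes were chosen by name as textbook parts of these pathways, without a threshold on any value. They and the further lists below were chosen with earlier results of these data known. All 37 were among the 25010 genes in the table, and all 37 passed the filter of a mean of at least 10 normalized counts that left 15578 genes for testing. They fall into an ATF4 branch of 14 genes and an XBP1/ATF6 branch of 23 genes, which are described apart.

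Polyadenylated RNA was sequenced from the left liver lobe of 2 wild-type (WT) mice and 2 mice lacking both Lxrα and Lxrβ in the whole body (LXRDKO). All were on a C57BL/6 background, 8 weeks old, kept on standard chow and fasted for 4 to 6 h. Because the deletion was in every cell of the body, a difference in liver RNA cannot be assigned to hepatocytes. Reads assigned to genes numbered 55772659 and 72842744 in WT 1 and WT 2, and 63681131 and 56281367 in LXRDKO 1 and LXRDKO 2. Values below are normalized counts, that is, reads per gene divided by 1 size factor per library, and a fold change is the LXRDKO mean minus the WT mean of log2(normalized count + 1). The knockout alleles were checked with the transcripts of the deleted genes. Nr1h3, which encodes LXRα, was at 5785 and 5322 in WT and 1712 and 1826 in LXRDKO, and Nr1h2, which encodes LXRβ, was at 2987 and 3110.0 and 926 and 1003, with log2 fold changes of −1.65 and −1.66 (limma adjusted p = 0.0147 for both). Both limma calls are lost without LXRDKO 1 and without LXRDKO 2, although the fold changes stayed at −1.60 or lower. They are also lost when limma was run without its variance trend (limma adjusted p = 0.212 for both), with the fold changes of the main fit. With all 4 livers both genes were also called lower by DESeq2 (adjusted p = 3.4e-28 and 3.9e-26) and edgeR (adjusted p = 0.0167 for both).

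The tissue label was checked with 6 hepatocyte genes. The most abundant, Alb, was at 4940806 and 5959085 in WT and 5214024 and 4644569 in LXRDKO, and none of the 6 passed the test with limma or DESeq2. These are bulk samples, so fewer cells of a type and less RNA per cell cannot be told apart.

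Cells respond to unfolded protein in the endoplasmic reticulum (ER) through the sensors IRE1α, ATF6 and PERK. IRE1α splices Xbp1 mRNA and ATF6 is released by proteolysis, and both outputs are transcription factors that raise chaperones and the machinery of ER-associated degradation. PERK is also 1 of the 4 kinases that phosphorylate eIF2α, which lowers general translation while ATF4 is translated more and drives genes of amino acid supply, redox balance and cell death. Hepatocytes secrete large amounts of protein and carry an extensive ER. Gene counts do not separate spliced from unspliced Xbp1 and do not measure the translation of ATF4.

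None of the 37 genes differed between the genotypes after adjustment over all genes tested. limma called 0 of 37 in either direction, where it called 0.135% of all genes as higher and 0.186% as lower in LXRDKO. DESeq2 also called 0 of 37, against 1.56% of its genes higher and 2.03% lower, and edgeR called 0 of 37, against 0.122% and 0.193%. At an unadjusted limma p under 0.05 the count was 0 genes higher, where all genes tested gave 5.77%. It was 3 genes lower, Ppp1r15b, Xbp1 and Sel1l, where all genes tested gave 7.5%. Those counts are from the main fit, and limma without its variance trend gave 0 lower in each branch. Other fits gave more in the XBP1/ATF6 branch. Its count of 2 lower in the main fit was 3 with the replicate number as a block and 4 with the unadjusted p of DESeq2. The ATF4 branch, with 1 lower in the main fit, had 0 in both. The LXRDKO pair was entirely above the WT pair for 1 of 37 genes, against 21.7% of all genes, and entirely below it for 9 of 37, against 23%. The second share is near that of all genes. With 2 livers against 2, an exact two-sided permutation test of a single gene cannot go below p = 0.333.

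In the genome as a whole, limma called 21 genes higher and 29 lower in LXRDKO. These counts depend on single libraries and on the variance model: the total of 50 became 265 without WT 1, 157 without WT 2, 2 without LXRDKO 1 and 4 without LXRDKO 2, and it was 1 without the variance trend. The 0 of 37 held in each of these except without WT 2, where 1 gene, Sdf2l1, was called lower, with a log2 fold change of −1.02 (limma adjusted p = 0.0406, where that fit called 0.456% of all genes lower).

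**Figure D1:**
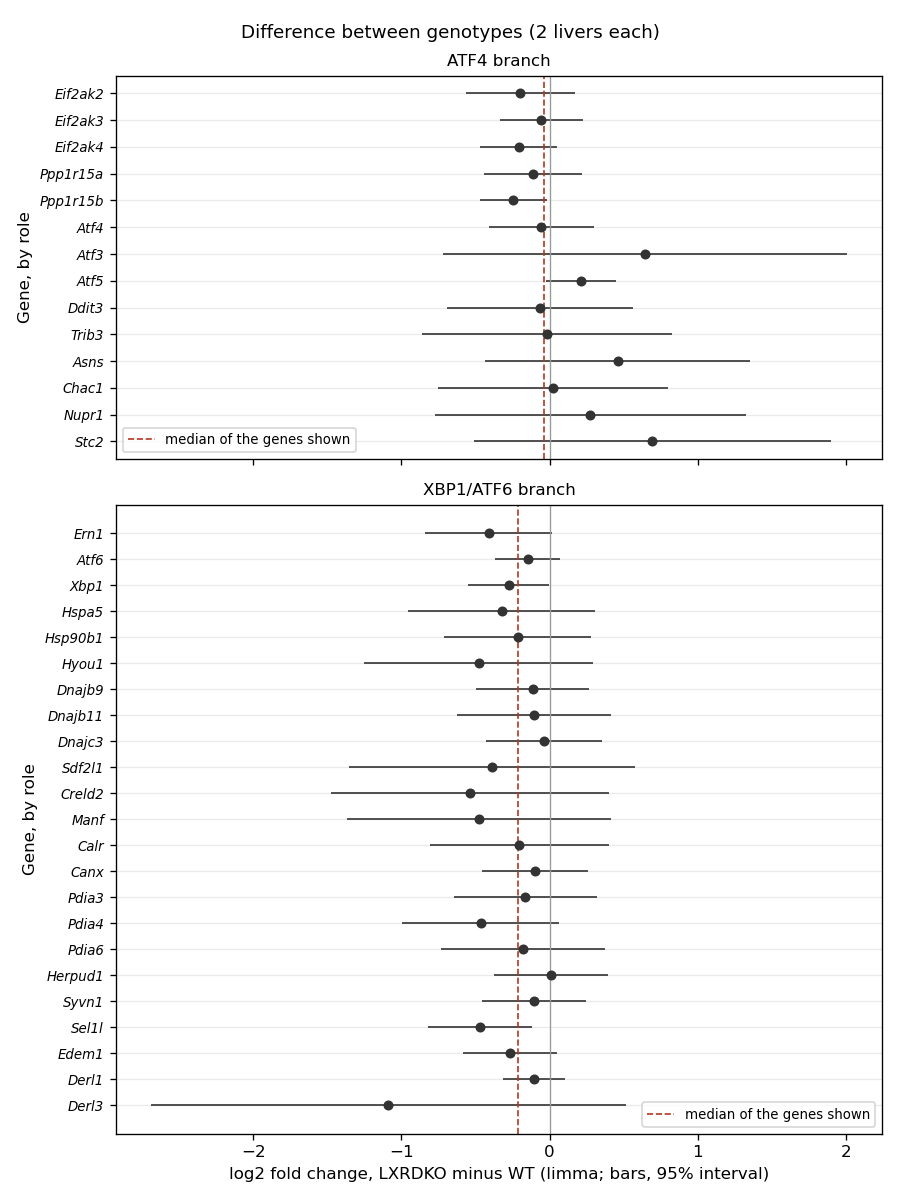
log2 fold change of each gene (LXRDKO minus WT, 2 livers each, limma) with its 95% interval, in the 2 branches, with a dashed line at the branch median. The ATF4 branch is spread on both sides of 0 around a median of −0.03, and the XBP1/ATF6 branch lies mostly below 0 with a median of −0.22.

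The XBP1/ATF6 branch had a one-sided set of values in which 1 liver stood apart. Of its 23 genes, 22 had a negative log2 fold change (21 when libraries were scaled to their totals), with a median of −0.22, a lowest value of −1.09 and a highest of 0.01. The median over all genes tested was −0.00460. However, 22 of the 23 genes had their highest value in WT 1, where 26.5% of all genes did, and the exception was Dnajb9. WT 1 exceeded WT 2 by a median log2 difference of 0.45 in this branch, against 0.00272 over all genes tested, and the difference inside the WT group was larger than that between the genotypes for 18 of 23 genes, where this held for 52.2% of all genes. Under scaling to the library total the same median difference was 0.41, with 21 of 23 genes highest in WT 1. Without WT 1 the branch median was −0.03, with 13 genes lower and 10 higher, and without WT 2 it was −0.44, with 22 genes lower. Without LXRDKO 1 it was −0.10, with 21 genes lower, and without LXRDKO 2 it was −0.28, with 22 genes lower.

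The LXRDKO livers also differed from each other in this branch. LXRDKO 2 exceeded LXRDKO 1 for 18 of 23 genes, with a median log2 difference of 0.16, where all genes tested gave 50.3% and 0.00245. Taken as the median deviation from each gene's mean over the 4 livers, the branch stood at 0.33 in WT 1, −0.14 in WT 2, −0.18 in LXRDKO 1 and −0.02 in LXRDKO 2 on the log2 scale. WT 2 thus lay between the LXRDKO livers.

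**Figure D2:**
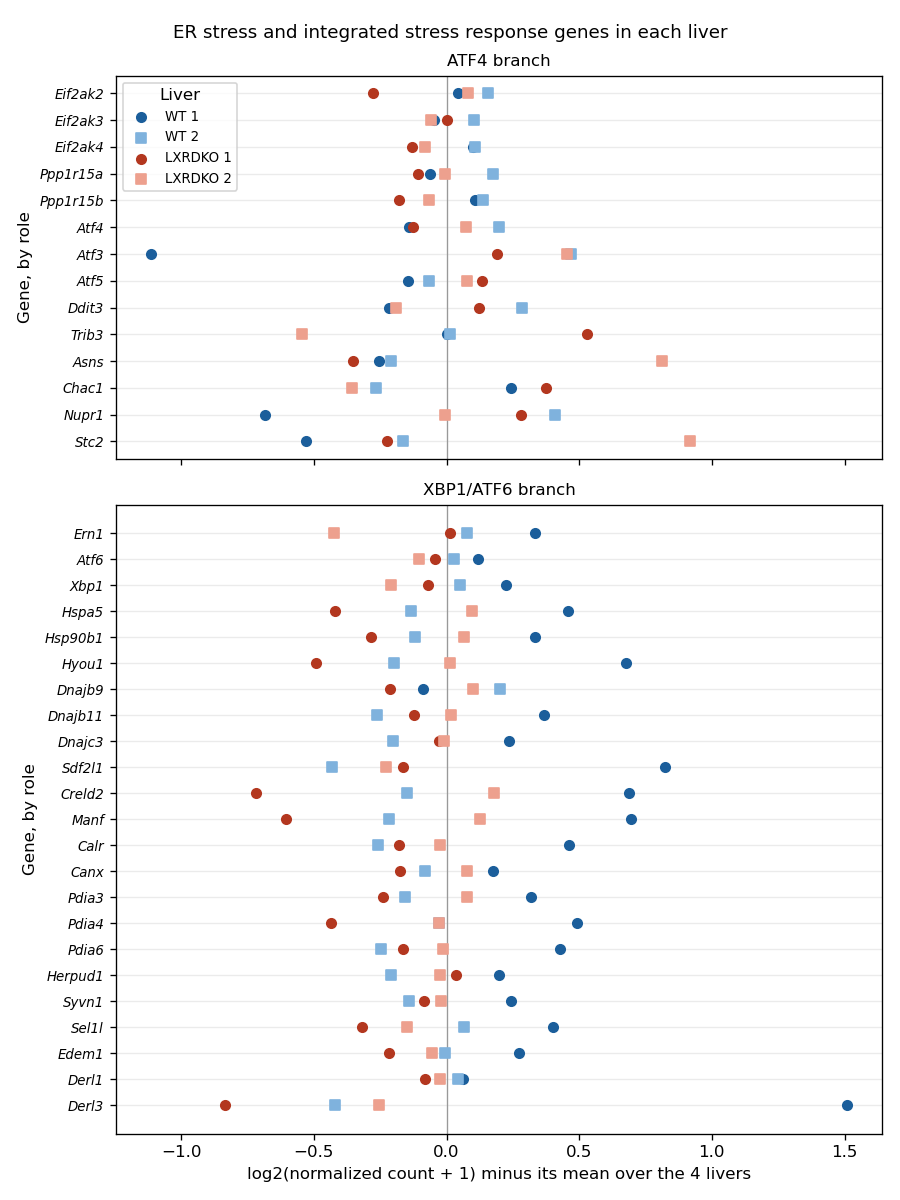
Each gene's log2(normalized count + 1) in the 4 livers, as the difference from its mean over those livers, with 1 point per liver and genes ordered by role. In the XBP1/ATF6 branch WT 1 is the highest liver for 22 of 23 genes, and in the ATF4 branch it is the highest for 0 of 14.

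The 2 sensors in this branch and Xbp1 showed a different order of livers from the chaperones. Xbp1 (chr11:5520659-5525893, GRCm38), the substrate of IRE1α, was at 16689.5 and 14780.0 in WT and 13613 and 12346 in LXRDKO. Its log2 fold change was −0.28 ± 0.11 (SE; limma adjusted p = 0.37, DESeq2 0.449). Both LXRDKO livers were lower than both WT livers, and the difference did not pass the test. Ern1 (chr11:106394650-106487852), which encodes IRE1α, was at 6677 and 5588 in WT and 5344 and 3944 in LXRDKO, a log2 fold change of −0.41 ± 0.17 (limma adjusted p = 0.392). Atf6 (chr1:170704674-170867771), the membrane-bound precursor of the ATF6 factor, was at 8165 and 7656 and 7282 and 6998, a log2 fold change of −0.15 ± 0.09 (limma adjusted p = 0.557). All 3 genes had both LXRDKO livers below both WT livers, as did 23% of all genes, and LXRDKO 2 was the lowest liver for each, whereas LXRDKO 2 was the lowest for 0 of the 9 chaperones.

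The 9 chaperones and co-chaperones of the ER lumen all had overlapping groups, as did 8613 of the 15578 genes tested. Hspa5 (chr2:34771970-34777547), which encodes BiP, the chaperone that also holds the sensors inactive, was at 39484 and 26133 in WT and 21452 and 30695 in LXRDKO. WT 2 lay between the LXRDKO livers, and the log2 fold change of −0.32 ± 0.25 had a 95% interval of −0.95 to 0.31 (limma adjusted p = 0.658). Hyou1 (chr9:44379490-44392369), a large Hsp70-type nucleotide exchange factor for BiP, was at 12792 and 6993 in WT and 5694 and 8089 in LXRDKO, a log2 fold change of −0.48 ± 0.31 (limma adjusted p = 0.591). The same order of livers, with WT 1 highest, LXRDKO 1 lowest and the other livers between, was also seen in Creld2 and Manf.

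Creld2 (chr15:88819646-88826683), an ER stress-inducible protein of the lumen, was at 2349.7 and 1313 in WT and 886 and 1651 in LXRDKO, a log2 fold change of −0.54 ± 0.38 (limma adjusted p = 0.621). Manf (chr9:106838312-106891979), a stress-induced protein that binds BiP and can be secreted, was at 4440.4 and 2355 in WT and 1804 and 2991 in LXRDKO, with a log2 fold change of −0.48 ± 0.36 (limma adjusted p = 0.645). In both genes WT 1 was far above WT 2, and WT 2 lay between the LXRDKO livers. Sdf2l1, a partner of BiP and its DnaJ co-chaperones, was at 1628 and 679.9 in WT and 819 and 785 in LXRDKO, so that both LXRDKO livers exceeded WT 2. Its log2 fold change was −0.39 with all 4 livers and 0.24 without WT 1. Hsp90b1, the ER form of Hsp90, had a log2 fold change of −0.22, and the DnaJ proteins Dnajb9, Dnajb11 and Dnajc3 had −0.11, −0.10 and −0.04.

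The 5 lectin chaperones and protein disulfide isomerases were all highest in WT 1. Calr, which encodes the glycoprotein chaperone calreticulin, was at 61387 and 37246 in WT and 39323 and 43829.8 in LXRDKO. WT 2 was the lowest of the 4 livers, and the log2 fold change changed sign from −0.20 to 0.16 without WT 1. The fold changes of Canx, Pdia3 and Pdia6 were −0.10, −0.16 and −0.18. Pdia4 was at 14202 and 9919.8 in WT and 7473 and 9907 in LXRDKO, a log2 fold change of −0.46 ± 0.21 (limma adjusted p = 0.425), where WT 2 and LXRDKO 2 were nearly equal.

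Among the 6 genes of ER-associated degradation, Sel1l had the smallest p of all 37 genes, and it is described for that reason. Sel1l, the adaptor of the Hrd1 ubiquitin ligase, was at 14764 and 11688 in WT and 8945 and 10074 in LXRDKO. Its log2 fold change was −0.47 ± 0.14, with a 95% interval of −0.82 to −0.12 (limma adjusted p = 0.268, DESeq2 0.0982), and both LXRDKO livers were lower than both WT livers. Its ligase partner Syvn1, which encodes Hrd1, did not share this separation, at 6045 and 4631 in WT and 4809.5 and 5034 in LXRDKO. Edem1, which delivers misfolded glycoproteins for degradation, and Derl1, a channel component, had fold changes of −0.27 and −0.11 with groups that did not overlap. Herpud1, a stress-induced organizer of the Hrd1 complex, was the 1 gene of the branch with a fold change above 0, at 0.01.

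Derl3 (chr10:75893413-75895941), a derlin typical of secretory cells, had the most negative fold change of all 37 genes. It was at 207 and 53.5 in WT and 39.9 and 60 in LXRDKO, a log2 fold change of −1.09 ± 0.65 (95% interval −2.69 to 0.51; limma adjusted p = 0.55). The value in WT 1 stood alone, and the other 3 livers lay close together.

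In contrast to the XBP1/ATF6 branch, the ATF4 branch had no common direction. Of its 14 genes, 6 had a positive and 8 a negative log2 fold change, with a median of −0.03 and a range of −0.24 to 0.69. The median was 0.02 under scaling to the library total and, with 1 liver left out, −0.18 without WT 1, 0.07 without WT 2, −0.04 without LXRDKO 1 and 0.03 without LXRDKO 2. WT 1 was the highest liver for 0 of 14 genes and the lowest for 6, and it exceeded WT 2 for 1 of 14, where 50.5% of all genes did. The liver with the highest ER chaperones was therefore not high in ATF4 branch transcripts.

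The 5 kinases and phosphatase subunits that set eIF2α phosphorylation all had negative fold changes, and none passed the test. Eif2ak3 (chr6:70844515-70905245), which encodes PERK, was at 944 and 1048 in WT and 976 and 938 in LXRDKO, a log2 fold change of −0.06 ± 0.11 (95% interval −0.34 to 0.22; limma adjusted p = 0.889). Eif2ak2 and Eif2ak4, the kinases PKR and GCN2 that answer to double-stranded RNA and to uncharged tRNA, had fold changes of −0.20 and −0.21. Ppp1r15a, the stress-induced phosphatase subunit GADD34, was at −0.11. Ppp1r15b, its constitutive counterpart, was at 11175 and 11396 in WT and 9149 and 9912 in LXRDKO, a log2 fold change of −0.24 ± 0.09 (limma adjusted p = 0.344). The groups of Ppp1r15b and Eif2ak4 did not overlap.

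The transcription factors of the branch lay on both sides of 0. Atf4 (chr15:80255184-80257541) was at 5229 and 6610.4 in WT and 5281 and 6062 in LXRDKO, and both LXRDKO values lay between those of the WT livers. Its log2 fold change was −0.06 ± 0.14, with a 95% interval of −0.41 to 0.30 (limma adjusted p = 0.918). Ddit3 (chr10:127290774-127296288), which encodes the pro-apoptotic factor CHOP, was at 146 and 207 in WT and 185 and 149 in LXRDKO, a log2 fold change of −0.07 ± 0.25 (limma adjusted p = 0.946). The Ddit3 groups overlapped, and its 95% interval of −0.69 to 0.56 was wider than that of Atf4.

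Atf3 (chr1:191170296-191218039), a stress-inducible factor downstream of ATF4, was at 22.8 and 70.5 in WT and 57.9 and 69.7 in LXRDKO. WT 1 alone was low, and the log2 fold change of 0.65 ± 0.55 (limma adjusted p = 0.688) became −0.15 without that liver. Atf5, a relative of ATF4 that is abundant in liver, was the 1 gene of the 37 whose LXRDKO values both exceeded the WT values, at 16569.7 and 17506 in WT and 20139.8 and 19361 in LXRDKO. Its log2 fold change was 0.21 ± 0.09 (limma adjusted p = 0.41).

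The 5 targets of the branch varied between livers of 1 genotype and did not all share an order of livers. Asns (chr6:7675169-7693254), asparagine synthetase and a standard target of ATF4 on amino acid shortage, was at 925 and 954 in WT and 864 and 1937 in LXRDKO. LXRDKO 2 alone was high, and the log2 fold change of 0.46 ± 0.36 (limma adjusted p = 0.657) was −0.12 without it. Trib3, a pseudokinase that restrains ATF4 and CHOP, had the opposite order of LXRDKO livers, at 603 and 607 in WT and 869.5 and 413 in LXRDKO. Chac1, which degrades glutathione, was likewise higher in LXRDKO 1 than in LXRDKO 2, at 259 and 182 in WT and 284 and 170.4 in LXRDKO. Thus the LXRDKO liver with the highest Asns had the lowest Trib3 and Chac1 of the 4 livers.

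Stc2 (chr11:31357307-31370074), a secreted glycoprotein, was at 18.2 and 23.8 in WT and 22.8 and 51.5 in LXRDKO. Its log2 fold change was 0.69 ± 0.49 (limma adjusted p = 0.621). LXRDKO 2 alone was high, and LXRDKO 1 lay between the WT livers. Nupr1 (chr7:126623249-126630861), a small stress-induced chromatin protein, was at 36.5 and 78.9 in WT and 72.1 and 59 in LXRDKO, a log2 fold change of 0.27 ± 0.42 (limma adjusted p = 0.845). The groups of both genes overlapped, and at these low counts only large differences could have been detected.

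Levels were compared between genes per kilobase of exon, with the exons of all annotated transcripts of a gene merged. The merged length can exceed that of the transcript expressed in liver, so the order of genes is approximate. On that scale Calr was the most abundant of the 37 genes, at a mean of 15780.0 normalized counts per kb over the 4 livers, before Herpud1 at 11889 and Hsp90b1 at 10520.1. Atf5 led the ATF4 branch at 9229 normalized counts per kb, above Atf4 at 2458 and Ddit3 at 100.3. Stc2 was the lowest of all at 5.62 normalized counts per kb.

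Other genes of the same pathways were read from the same fit. Of 40 further genes of the integrated stress response, 38 were tested (Phgdh and Slc7a11 were below the filter), and limma called 0 in either direction, with 8 higher and 2 lower at an unadjusted p under 0.05, where all genes tested gave 5.77% and 7.5%. DESeq2 called 5 higher and 0 lower, where it called 1.56% and 2.03% of all its genes, and edgeR called 0. Their median log2 fold change was −0.00254, with 19 genes higher and 19 lower.

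Among the 38 genes the LXRDKO livers were entirely above the WT livers for 13, the 5 DESeq2 calls included, and entirely below for 9, against 21.7% and 23% of all genes. Ddit4, a stress-induced inhibitor of mTORC1, was at 348 and 160.4 in WT and 712 and 823 in LXRDKO, a log2 fold change of 1.69 ± 0.36 (limma adjusted p = 0.155, DESeq2 0.000185). Sesn2, a leucine sensor that also restrains mTORC1, was at 643 and 608 in WT and 865 and 1176 in LXRDKO, a log2 fold change of 0.69 ± 0.17 (limma adjusted p = 0.205, DESeq2 0.0286). Tnfrsf10b, the TRAIL death receptor, was at 6.84 and 24.6 in WT and 75 and 133 in LXRDKO, a log2 fold change of 2.83 ± 0.64 (limma adjusted p = 0.172, DESeq2 0.00172). Each of these genes can also be induced by p53.

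The other calls were enzymes of amino acid metabolism. Cth, cystathionine γ-lyase of cysteine synthesis, was at 17795 and 13989.8 in WT and 26354 and 27119 in LXRDKO, a log2 fold change of 0.76 ± 0.14 (limma adjusted p = 0.127, DESeq2 0.00033). Gpt2, the mitochondrial alanine aminotransferase, was at 42904 and 36918 in WT and 59693 and 61974 in LXRDKO, a log2 fold change of 0.61 ± 0.13 (limma adjusted p = 0.153, DESeq2 0.0011). Without WT 1, limma also called Ddit4 and Cth (limma adjusted p = 0.00482 and 0.0204), and without WT 2 it called Tnfrsf10b (limma adjusted p = 0.0250).

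Among these 40 are 5 upstream genes, 3 higher and 2 lower, whose log2 fold changes had their median at 0.16, and limma, DESeq2 and edgeR called 0 of them (unadjusted limma p under 0.05 for 2 higher, Cebpb and Jdp2, and 0 lower, against 5.77% and 7.5% of all genes). Jdp2, a repressor of the AP-1 family, had the largest fold change of the upstream genes, at 0.77 (limma adjusted p = 0.342). The 12 aminoacyl-tRNA synthetases had a median of −0.03, with 5 higher and 7 lower, and the largest difference was that of Tars, the threonyl enzyme, at −0.36 (limma adjusted p = 0.189, DESeq2 0.109). Gdf15 and Fgf21, hormones released under this response, are given as examples picked with their values in view. Gdf15 was at 177 and 351 in WT and 547 and 1446 in LXRDKO (limma adjusted p = 0.249). Fgf21 was at 67.3 and 698 in WT and 40.8 and 242 in LXRDKO and thus varied more within each genotype than between them.

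**Figure D3:**
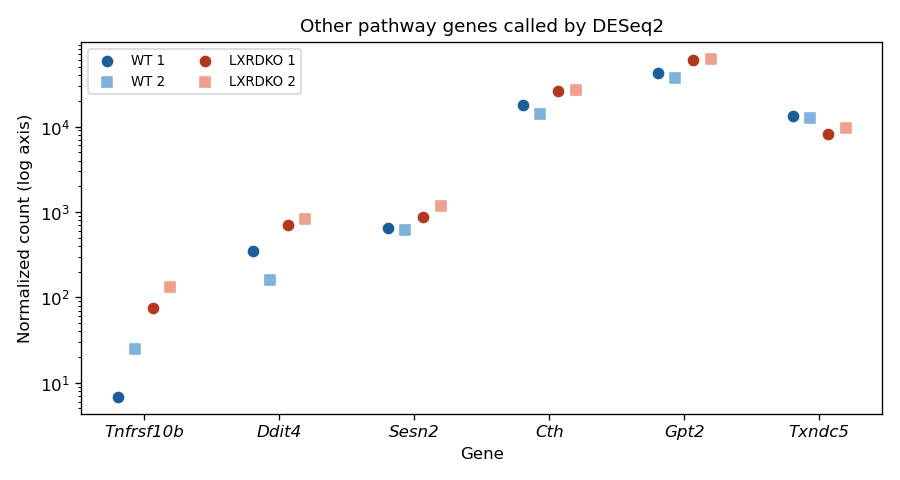
Normalized counts, on a log axis, of the 6 further pathway genes called by DESeq2, with 1 point per liver. For Tnfrsf10b, Ddit4, Sesn2, Cth and Gpt2 the LXRDKO points lie above the WT points, and for Txndc5 they lie below.

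Of 52 further ER genes, all of them tested, limma called 0 in either direction, with 0 higher and 6 lower at an unadjusted p under 0.05 (5.77% and 7.5% of all genes tested), and edgeR called 0. DESeq2 called 0 higher and 1 lower, a share near the 2.03% of all its genes. The median log2 fold change was −0.02, with 23 genes higher and 29 lower. The call was Txndc5, a disulfide isomerase of the lumen, at 13313 and 12484 in WT and 8239.9 and 9607 in LXRDKO, with a log2 fold change of −0.54 ± 0.11 (limma adjusted p = 0.151, DESeq2 0.0115).

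The excess in WT 1 reached these ER genes as well, at a smaller size. WT 1 was above WT 2 for 47 of the 52 genes, with a median log2 difference of 0.16, and 32 had their highest value in WT 1. Of the 20 genes for translocation and N-glycosylation, 20 were higher in WT 1 than in WT 2, with a median difference of 0.21. The largest genotype difference in that group was that of Ostc, a subunit of the oligosaccharyltransferase, at −0.35 (limma adjusted p = 0.341). In the lists of further degradation genes and of regulators the largest were Derl2 at −0.14 (limma adjusted p = 0.559) and the retrieval receptor Kdelr3 at 0.92 (limma adjusted p = 0.619).

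Stress responses of other compartments were not called. Of 8 cytosolic heat shock genes, 7 had a negative log2 fold change, with a median of −0.25 and 0 calls by limma, DESeq2 or edgeR (unadjusted limma p under 0.05 for 0 higher and 2 lower, against 5.77% and 7.5% of all genes). The most negative was Hspb1, which encodes the small chaperone Hsp27, at 359 and 199 in WT and 141 and 139 in LXRDKO, a log2 fold change of −0.92 ± 0.31 (limma adjusted p = 0.304). The 7 genes of the mitochondrial response had a median of −0.07, also with 0 calls by the 3 tools (unadjusted limma p under 0.05 for 0 higher and 1 lower, beside the same shares), and the largest was Hspd1, which encodes Hsp60, at −0.25 (limma adjusted p = 0.329).

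Genes that respond to handling, fasting and p53 were read beside these results, and their part in them was not tested. All 11 p53 targets had a positive log2 fold change, with a median of 1.04, and in 10 of them the groups did not overlap, with LXRDKO higher, against 21.7% of all genes. limma called 3 and DESeq2 9 of the 11 higher, against 0.135% and 1.56%, and edgeR called 3. The paper had already reported a p53 response among its up-regulated genes from these same libraries, so these shares are not independent of it. Cdkn1a, which encodes the cell cycle inhibitor p21, was at 62.7 and 95.9 in WT and 2457 and 6375 in LXRDKO (log2 fold change 5.66 ± 0.46, limma adjusted p = 0.0255). Phlda3, an inhibitor of Akt, and Eda2r, a receptor of the TNF receptor family, had fold changes of 4.40 and 4.30 (limma adjusted p = 0.0239 and 0.0432). Ccng1, Aen and Plk2 had fold changes of 1.20, 1.20 and 1.04 and were called by DESeq2 and not by the main limma fit (DESeq2 adjusted p = 2.5e-06, 7.52e-06 and 0.00786). The limma calls of Cdkn1a, Phlda3 and Eda2r are lost without LXRDKO 1 (limma adjusted p = 0.0574, 0.0715 and 0.179) or LXRDKO 2 (limma adjusted p = 0.0768, 0.0866 and 0.224). The log2 fold changes were 6.34, 4.85 and 4.65 without the former and 4.97, 3.94 and 3.96 without the latter. The calls are also lost in limma without its variance trend (limma adjusted p = 0.212, 0.212 and 0.219), that of Cdkn1a with robust moderation (0.0651) and that of Eda2r with the filter at a mean of 50 (0.0580), with the fold changes of the main fit. In the other direction, limma called Aen with the replicate number as a block (0.0454) and Ccng1 without WT 1 (0.0450). The summed level of the list was 12125 and 12309 in WT and 22008 and 37360.4 in LXRDKO, and its most abundant gene was Trp53inp1.

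Of 10 immediate early genes tested (Fosb was below the filter), 10 had a positive fold change, with a median of 0.51 and 0 calls by the 3 tools (unadjusted limma p under 0.05 for 2 higher and 0 lower, against 5.77% and 7.5% of all genes). WT 1 was the lowest liver for 9 of these 10. The summed level of the list, Fosb included, was 10842 and 13458 in WT and 14412 and 18941 in LXRDKO, with Zfp36 the most abundant. The largest fold change was that of Btg2, an antiproliferative gene that p53 also induces, at 486 and 851 in WT and 854 and 2363 in LXRDKO (limma adjusted p = 0.412). Of 8 fasting-induced genes, DESeq2 called 1 higher (1.56% of all its genes), Tat, which encodes tyrosine aminotransferase, at a log2 fold change of 0.65 (DESeq2 adjusted p = 0.00675, limma 0.242). Their summed level was 543225 and 592493 in WT and 620703 and 645926 in LXRDKO, with Pck1 the most abundant.

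Markers of other liver cells also moved with genotype. Of 7 Kupffer cell genes, 6 had a negative fold change, limma called 3 of them lower (Cd5l, Clec4f and Marco) and DESeq2 5, against 0.186% and 2.03% of all genes. Their summed level was 10183 and 11485 in WT and 4739 and 2541 in LXRDKO. Csf1r was the most abundant of them, and Timd4 was listed at 0 in LXRDKO 2. Of 5 sinusoidal endothelial genes, 1, Kdr, was called lower by limma and by DESeq2, beside the same shares, and the summed level, led by Stab2, was 9182 and 8186 in WT and 6901 and 5277 in LXRDKO. limma called none of the 5 stellate or 5 cholangiocyte genes, and DESeq2 called 1 of each higher, Dcn and Epcam, against 1.56% of all its genes. Their summed levels were 8166 and 10294 against 12089.8 and 14102, and 2077 and 3582 against 4553 and 5409, led by Dcn and Spp1. The LXRDKO livers were entirely above the WT livers for 5 of 5 cholangiocyte and 2 of 5 stellate genes, against 21.7% of all genes. At an unadjusted limma p under 0.05, 3 and 1 were higher, against 5.77%. The median log2 fold changes were 0.84, with 5 genes higher, and 0.48, with 4 higher and 1 lower. Of the 15 alternatives, the limma call was lost in 0 for Cd5l, in 1 for Clec4f, in 6 for Marco and in 8 for Kdr, among them the fits without LXRDKO 1 and without LXRDKO 2 for Marco and Kdr. The part of these cells in the values of the 37 genes was not tested.

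Plasma cells are rich in several proteins of the XBP1/ATF6 branch, so B and plasma cell markers were read per liver. The summed level of 8 such genes was 10344 and 13680.0 in WT and 12909.9 and 17901 in LXRDKO, and most of it was Sdc1, which hepatocytes also express, at 9688 and 13025 and 12262 and 16898. Of the 8, 4 had a positive and 4 a negative log2 fold change, 4 were lowest in WT 1 and 1 was highest there, and the genes named next were picked with their values in view. Jchain was at 21.7 and 50.1 in WT and 43.7 and 195 in LXRDKO, and Igkc at 63.9 and 147 and 181 and 582. Both were lowest in WT 1. Ighm, at 467 and 321 in WT and 313 and 139 in LXRDKO, was the gene with its highest value in WT 1. Cd79a and Ms4a1 were lower in both LXRDKO livers, with log2 fold changes of −2.15 and −1.31 (limma adjusted p = 0.289 and 0.28). T cell markers summed to 92.4 and 153 in WT and 67.4 and 68.6 in LXRDKO, led by Cd3e, and neutrophil and monocyte markers to 68.4 and 163 and to 171 and 205, led by Ccr2. Of the pancreatic acinar genes, Pnlip was listed at 0 in 3 livers and Cela2a was at 12.5 to 28.5. Of these 4 lists, Cd3d, S100a8, Ly6g, Ly6c2 and Pnlip were below the filter and 4 pancreatic genes were not in the table. limma, DESeq2 and edgeR called 0 of the 14 genes tested (unadjusted limma p under 0.05 for 1 higher and 3 lower, against 5.77% and 7.5% of all genes).

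The promoters of the 37 genes were searched because the XBP1/ATF6 genes varied together between livers. RefSeq promoter windows, from 250 bases before to 50 after the start (GRCm38.p6), were found for 32 of the 37 genes, 13 of the ATF4 branch and 19 of the XBP1/ATF6 branch, and not for Atf6, Derl1, Hyou1, Manf and Ppp1r15b. The ER stress response element, ERSE, was searched on both strands as CCAAT and CCACG with 9 bases between. It was present for 9 of 19 XBP1/ATF6 genes and for 0 of 13 ATF4 branch genes. Of all 32851 promoter windows, 0.119% held it. The branch counts here and below are of genes, and the 32 genes had 34 windows. The shorter ERSE-II, ATTGG and CCACG with 1 base between, was present in Dnajb11 and Herpud1 and in 0.0365% of all windows. The genes of this branch are textbook examples of the element, and a match is a description of the letters only.

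The core of the ATF4-responsive element, TGATGNAA, was found for 5 of 13 ATF4 branch genes and for 1 of 19 XBP1/ATF6 genes, Herpud1. Of all windows, 3.97% held it. The core of the unfolded protein response element, TGACGTGG, was found for 0 of the 32 genes and in 0.676% of all windows. CCAAT alone was found for 17 of 19 and 7 of 13 genes (37.4% of all windows). CCACG alone was found for 17 of 19 and 7 of 13 genes (32.8%). These short motifs are also counted inside ERSE.

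The ERSE matches are shown as sequences of this branch. Of the genes that carry them, 9 of 9 had their highest value in WT 1, with a median log2 difference of 0.60 between WT 1 and WT 2. That liver was not particular to them, since it was the highest for 22 of the 23 genes of the branch. Among the 10 genes of the branch with a window and no ERSE match, 9 were highest in WT 1, with a median difference of 0.37. These 10 include Dnajb11 and Herpud1, which hold ERSE-II. Genes without a window are in neither group, and their differences were 0.87 for Hyou1, 0.91 for Manf, 0.09 for Atf6 and 0.02 for Derl1. The median genotype fold changes were −0.20 with and −0.27 without a match. The spread between these groups of genes was not tested. Capitals mark CCAAT and CCACG, with 10 bases on each side, and Hsp90b1 has a pair of matches.
Hspa5, chr2:34772025-34772043, plus strand: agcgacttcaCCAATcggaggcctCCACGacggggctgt
Hsp90b1, chr10:86705638-86705656, minus strand: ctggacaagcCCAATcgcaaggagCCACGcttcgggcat
Hsp90b1, chr10:86705533-86705551, plus strand: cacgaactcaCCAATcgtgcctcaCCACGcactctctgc
Creld2, chr15:88819520-88819538, minus strand: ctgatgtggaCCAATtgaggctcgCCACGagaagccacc
Dnajc3, chr14:118937827-118937845, plus strand: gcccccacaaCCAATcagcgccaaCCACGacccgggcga
Calr, chr8:84847075-84847093, plus strand: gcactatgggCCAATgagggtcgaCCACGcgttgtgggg
Canx, chr11:50325800-50325818, minus strand: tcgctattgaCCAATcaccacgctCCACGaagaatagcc
Pdia6, chr12:17266491-17266509, plus strand: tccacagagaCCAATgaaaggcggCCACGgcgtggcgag
Syvn1, chr19:6046532-6046550, plus strand: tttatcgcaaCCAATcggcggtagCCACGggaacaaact
Derl3, chr10:75893242-75893260, minus strand: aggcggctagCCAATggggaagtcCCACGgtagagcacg

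The whole window of Hspa5 (chr2:34771840-34772139, plus strand, GRCm38.p6, RefSeq) places its match 65 bases before the RefSeq start, in capitals. The GENCODE M21 gene begins before the match, at chr2:34771970.
Hspa5 promoter: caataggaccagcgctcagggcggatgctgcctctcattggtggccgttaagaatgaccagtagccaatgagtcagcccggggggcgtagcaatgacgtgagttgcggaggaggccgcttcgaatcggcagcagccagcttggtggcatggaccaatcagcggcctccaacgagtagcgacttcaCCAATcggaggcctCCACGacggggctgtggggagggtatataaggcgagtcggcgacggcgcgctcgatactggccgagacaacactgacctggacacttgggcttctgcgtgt

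The 5 ATF4 branch matches are shown for contrast, since these genes did not share a highest liver. It was LXRDKO 2 for Asns, WT 2 for Atf3 and Nupr1, and LXRDKO 1 for Chac1 and Trib3. Capitals mark TGATGNAA, again with 10 bases on each side.
Asns, chr6:7693225-7693232, minus strand: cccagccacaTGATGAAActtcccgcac
Atf3, chr1:191183436-191183443, plus strand: gcggacttggTGATGCAAgtgcgagaag
Chac1, chr2:119351049-119351056, minus strand: ctggcaggagTGATGCAAcggcagggaa
Nupr1, chr7:126625573-126625580, plus strand: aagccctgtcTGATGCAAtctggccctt
Trib3, chr2:152344039-152344046, plus strand: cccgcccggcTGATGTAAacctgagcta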

How the data were processed

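Polyadenylated RNA of 4 livers was sequenced as single 50 bp reads from a stranded library. The authors aligned the reads to mm10 with STAR 2.6.0c and deposited a normalized signal per gene, reads divided by the DESeq2 size factor of each library (submitters' processing notes). The read counter and annotation release are not given in the sources used here. All deposited values (100%, tolerance 0.01) were whole multiples of their column's smallest nonzero value, which gave back whole reads. limma 3.58.1 in R 4.3.3 was fitted to log2(normalized count + 1) for genes with a mean of at least 10, with a variance trend and Benjamini-Hochberg adjustment over all 15578 genes tested, at 0.05. DESeq2 1.42.0, called on the recovered reads, gave 246 genes higher and 321 lower of 15797, and edgeR 4.0.16 gave 19 and 30. Each procedure was tested on simulated data, and no value from those runs is given here. Positions and exon lengths came from GENCODE M21.

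Full values are given for the 4 members of each branch with the largest absolute fold change. They are also given for 7 hub genes (Atf4, Ddit3, Xbp1, Hspa5, Ern1, Atf6 and Eif2ak3). Of each further list at most 6 called genes are described, or the largest where none was called. Some of these have levels per liver, and others only a fold change and an adjusted p. Called genes of the cell type lists are at most named. Others are named as examples of their role and were chosen after their values were seen. The members and lists were chosen with earlier results of these data known. Cpa1, Ctrb1, Cel and Prss2 of the pancreatic list and the ATAC-Seq libraries were not analysed here. Alternatives changed the pseudocount, filter, scaling, variance model, test, replicate block or set of livers. Where 1 liver was left out, the lone liver of its group was assumed to vary like the other group. Replicates are separate mice.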

Additional observations from a re-analysis of the deposited data

How the results depend on the processing

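The count of genes called by limma, 50 in all, was 25 with a mean of at least 50, 1 without the variance trend, 567 with DESeq2 and 2 to 265 when 1 liver was left out. Fewer genes or livers enter some of these fits, and the cause of the other changes was not tested. The labels give no pairing of mice by replicate number. The deviations of same-numbered livers were uncorrelated (r = 0.00312 across genes, which are not independent). With 1 difference between livers per genotype, this value cannot show whether mice were paired. The replicate block gave 90 calls and 0 among the 37 genes. The count of called members, 0, was 0 under all 15 alternatives but 1, and 0 to 1 when 1 liver was left out. The branch medians ranged over the fits without 1 liver from −0.18 to 0.0662 for ATF4 and from −0.44 to −0.0264 for XBP1/ATF6. Of 554 pairs of member and alternative, 31 changed sign, none of them called. Trib3 was at 0.0400 under scaling to the library total, 0.0842 with DESeq2 and 0.0938 with edgeR, Dnajc3 at 0.0189 under scaling to the library total and Herpud1 at −0.00242 with DESeq2. The others did so without 1 liver, where the log2 fold changes ranged from −0.22 to 0.11 for Atf4, −0.15 to 1.44 for Atf3, −0.32 to 0.18 for Ddit3, −0.55 to 0.52 for Trib3, −0.12 to 1.04 for Asns, −0.35 to 0.39 for Chac1, −0.23 to 0.00799 for Ppp1r15a, −0.13 to 0.0186 for Eif2ak3, −0.27 to 0.82 for Nupr1, −0.44 to 0.00904 for Hsp90b1, −0.40 to 0.0730 for Pdia3, −0.52 to 0.16 for Pdia6, −0.56 to 0.16 for Calr, −0.22 to 0.0309 for Canx, −0.27 to 0.0451 for Dnajb9, −0.42 to 0.21 for Dnajb11, −0.25 to 0.18 for Dnajc3, −0.19 to 0.21 for Herpud1, −0.30 to 0.0875 for Syvn1 and −1.02 to 0.24 for Sdf2l1. Depth limits the genes with the lowest counts, where 3 reads correspond to 2.55 to 3.42 normalized counts.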
